A study of Homo sapiens with 8 samples.

Results

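TGFβ1-treated A2058 melanoma cells had 4.03-fold more mRNA of TGFA (transforming growth factor α) than control cells (95% interval 3.59 to 4.53, mean of 2 probes). BTC (betacellulin), another ligand of the same receptor, was 1.40-fold higher (95% interval 1.24 to 1.57). The probes of the other measured EGF family ligands, EGF, EREG and HBEGF, and of the 4 ERBB receptors had log2 changes between −0.097 and 0.20. The genes were taken by name, as all array probes annotated to 6 EGF family ligands and 4 ERBB receptors. This gave 17 of the 47315 probes and 9 of the 10 genes. The remaining gene, AREG, was not analysed here because no probe used here carried its symbol. The family was selected on earlier values of these same arrays, in which TGFA changed strongly, so the changes of the 17 probes are given as a description, without p-values. The fit across all probes included them, and how many passed its threshold is given only to place them among all probes.

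EGF family ligands are made as membrane-bound precursors and are released by proteases of the ADAM family, chiefly ADAM17. The free ligand binds EGFR, and some ligands, BTC and HBEGF among them, also bind ERBB4. The bound receptor pairs with a second ERBB receptor and signals through RAS and ERK kinases and through PI3 kinase. ERBB2 has no known soluble ligand and serves as a partner, while ERBB3 binds neuregulins and has little kinase activity of its own. In pigment cells ERBB3 belongs to the neural crest programme, and the signatures used in the study list ERBB3 among proliferative genes and EGFR among invasive genes. TGFβ1, despite the similar name, is unrelated to TGFα and acts through its own receptors and SMAD transcription factors.

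A2058 is an established human line of metastatic melanoma. There were 4 wells treated with TGFβ1 and 4 control wells, with 1 Illumina HT-12 array for each well. The sample titles call the control wells untreated, and they are named vehicle here. All 8 wells carry an empty vector in their sample titles, and the methods name Lipofectamine2000 for transient transfections in general. Per the methods, exposure lasted 24 h in serum-free media at either 5 or 10 ng/ml, and which dose these arrays had is not given there. All wells came from a single passage and plating day, so the errors and p-values describe the spread between wells and not between independent cultures. Bulk RNA cannot tell more RNA per cell from more cells of one kind.

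Values are log2 intensities that the authors centred by gene and by array, so every probe averages 0 over the 8 arrays. They show differences between arrays and keep neither the level of a transcript nor whether its probe stood above background. Levels cannot be compared between genes for this reason, and the presence of a cell type cannot be read from its markers. Over all 20045 genes, limma called 3.03% higher and 2.67% lower, 5.7% in either direction. Of the 8 measured melanocyte markers, 4 were lower under TGFβ1 and 0 were higher (limma, with 6 lower and 0 higher at an unadjusted p under 0.05). Their median log2 change was −0.29. Among 16 measured markers of epithelium, fibroblasts, endothelium and leukocytes, KRT10 alone passed, at 0.38. Of 7 measured genes that respond to SMAD signalling 6 were higher and 0 were lower, at a median of 0.87. That list was written with earlier results of these data known, so it is no independent check of the treatment labels. TGFβ1 replicate 4 stood apart from the other arrays. Its mean correlation with the arrays of its group over all probes was 0.023, against 0.088 to 0.129 for the other 7, its SD was the largest, at 0.160, and its array weight the lowest, at 0.69. The log2 changes without it are given with those of BTC, HBEGF, ERBB2 probe 3 and the NM_001982 probe of ERBB3. Each array pair of a group differed, by at least 0.168 (root mean square), so no pair of arrays held the same values.

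TGFA is read by probes at separate places, which share no run longer than 6 bases, and BTC by 1 probe laid across an exon junction. Sequences are shown for these 3 probes, which carry the changes in the family and were the only ones of the 17 with a sequence at hand. They came from the study's own list of probes altered by TGFβ1, so the study had already reported all 3. For TGFA the first 30 of 50 bases are printed, and for BTC capitals mark the 18 bases that lie in the second of the exons it spans.
TGFA probe 1: acccctgccctctagttggttctgggcttt
TGFA probe 2: cctgttctctctagccattgatttaccagg
BTC probe: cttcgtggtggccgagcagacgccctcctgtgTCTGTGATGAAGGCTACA
The BTC probe has its first 32 bases in the upstream exon and therefore matches spliced mRNA along its full length. TGFA probe 1 is annotated to the transcript NM_001099691 and probe 2 to NM_003236, which are splice variants of one gene.

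TGFA, which binds EGFR, showed the largest difference in the family. On probe 1 the TGFβ1 wells read 0.94, 0.88, 1.10 and 1.09 for replicates 1 to 4, and the vehicle wells read −1.14, −1.18, −0.82 and −0.86. All TGFβ1 wells lay above all vehicle wells, with 1.71 log2 units between the nearest ones. The log2 change was 2.003 (SE 0.09), from a mean of 1.002 ± 0.11 under TGFβ1 and −1.002 ± 0.18 under vehicle (SD, n = 4 each). On probe 2 the TGFβ1 wells read 0.81, 0.97, 1.15 and 1.11, and the vehicle wells −1.11, −0.99, −1.04 and −0.90. This probe separated the groups by the same margin, 1.71, and its log2 change was 2.02 (SE 0.09). The probes thus differed by 0.014 in their change, well inside the error of either one. Among all 47315 probes they ranked 8 and 9 by size of change, and as the mean of its probes TGFA ranked 7 among 20045 genes.

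**Figure D1:**
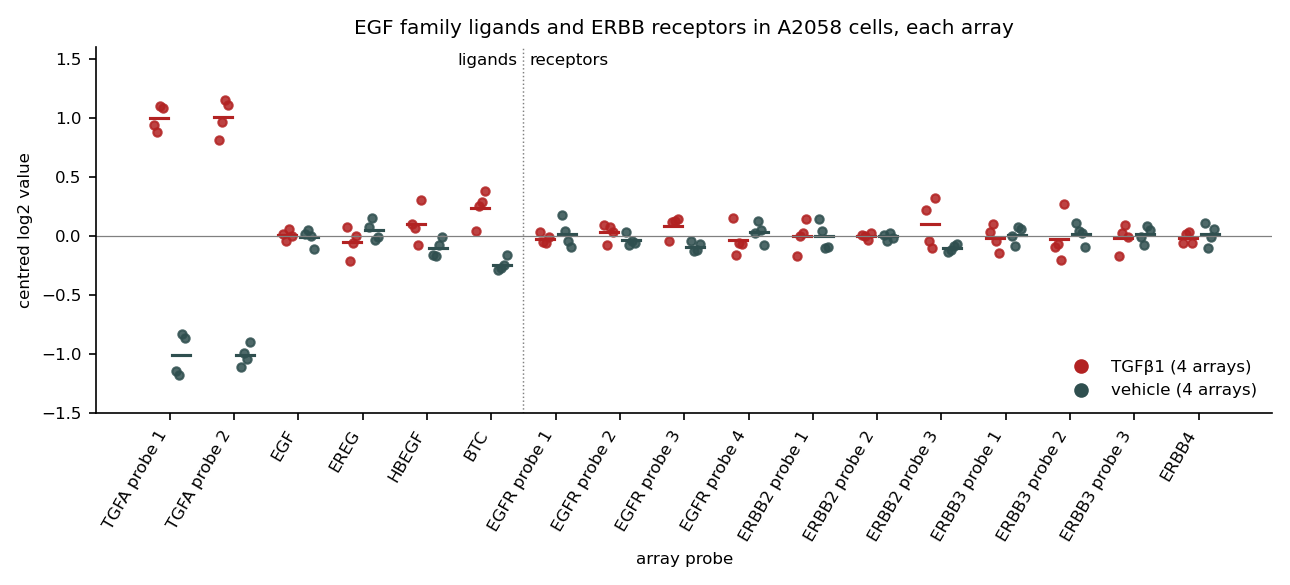
Centred log2 values (vertical axis) of the 17 probes of EGF family ligands and ERBB receptors, with 4 TGFβ1 arrays left and 4 vehicle arrays right for each probe and horizontal bars at the group means. The TGFA groups lie near 1 and −1 on both probes, the BTC groups near 0.24 and −0.24, and the other probes overlap around 0.

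BTC, a ligand of EGFR and ERBB4, was the other member whose groups did not overlap. The TGFβ1 wells read 0.040, 0.25, 0.29 and 0.38 and the vehicle wells −0.29, −0.27, −0.24 and −0.16. TGFβ1 replicate 1 was the lowest of its group and still lay 0.20 above the highest vehicle well. The group means were 0.24 ± 0.14 under TGFβ1 and −0.24 ± 0.055 under vehicle (SD, n = 4 each), a log2 change of 0.48 (SE 0.08). BTC ranked 706 among all probes by size of change. Its log2 change lay between 0.43 (without TGFβ1 replicate 4) and 0.55 when each array was left out in turn, and that of TGFA, as the mean of its probes, between 1.97 and 2.05.

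In all, limma called 3 of the 17 member probes higher (adjusted p under 0.05) and 0 lower, where 1.8% of all probes were higher, 1.53% lower and 3.33% either. At an unadjusted p under 0.05, 6 were higher and 0 were lower, where 5.57% of all probes were higher and 11.5% either. The SAM test of the methods called 3 higher and 0 lower, against 609 higher and 370 lower of all 47315 probes. The groups stood apart on the same 3 probes, all higher under TGFβ1, where 3.64% of all probes stood apart in that direction, 3.62% in the other and 7.26% in either. Nothing is read from these counts, since the family was chosen with this contrast in view. The median log2 change of the 17 probes was 0.0058, beside −0.0018 over all probes.

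HBEGF, the heparin-binding ligand of EGFR and ERBB4, had a smaller log2 change above 0. Its TGFβ1 wells read 0.11, 0.068, −0.075 and 0.30 and its vehicle wells −0.16, −0.17, −0.075 and −0.0047. TGFβ1 replicate 3 lay among the vehicle wells, and the highest value came from TGFβ1 replicate 4. The log2 change was 0.20 (95% interval 0.023 to 0.38), which allows up to a 1.30-fold difference, and 0.13 without TGFβ1 replicate 4. EREG (epiregulin), which also binds EGFR and ERBB4, read 0.081, −0.21, −0.062 and 0.0012 under TGFβ1 and 0.081, 0.15, −0.033 and −0.0039 under vehicle. The groups of EREG overlapped, with a log2 change of −0.097 (95% interval −0.27 to 0.074). EGF, the founding ligand, stayed between −0.045 and 0.060 under TGFβ1 and between −0.11 and 0.048 under vehicle. Its log2 change was 0.018 (95% interval −0.14 to 0.17). For EGF and EREG these intervals do not show equality, and a transcript below background would give values around 0 as well.

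**Figure D2:**
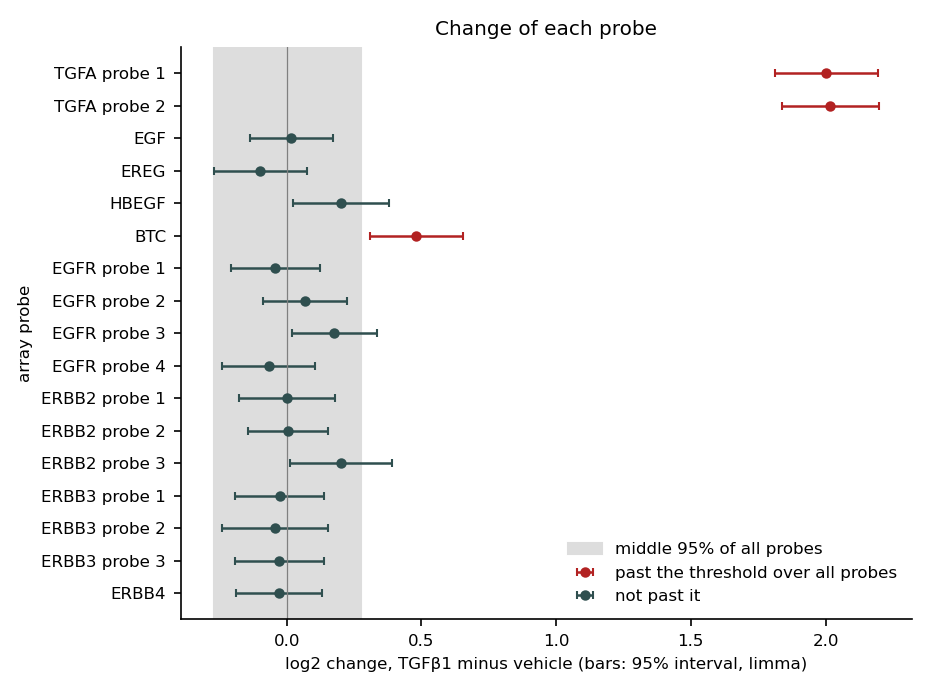
Log2 change of each probe, TGFβ1 minus vehicle (horizontal axis), with 95% intervals from limma and a grey band for the middle 95% of all 47315 probes, which runs from −0.27 to 0.28. Both TGFA probes lie near 2, BTC at 0.48 lies beyond the band, and the 14 other probes lie within it.

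As a description, 0 of the 11 receptor probes passed in limma, where 3.33% of all probes passed in either direction. At an unadjusted p under 0.05, 2 were higher and 0 lower, where 5.57% of all probes were higher and 11.5% either. SAM called 0 of them in either direction, against 609 higher and 370 lower of all 47315 probes. Nothing is read from these counts. The log2 changes of the receptor probes ran from −0.067 to 0.20, and their 95% intervals together from −0.24 to 0.39. The bounds on any one probe thus run from 0.847-fold to 1.31-fold. The groups overlapped on all 11. EGFR, the receptor of TGFα, BTC, EGF and HBEGF, has 4 probes, annotated to the full-length transcript NM_005228 (probe 4) and to variants of truncated receptors without the kinase domain, NM_201282 (probes 1 and 3) and NM_201284 (probe 2). The full-length probe read 0.15, −0.16, −0.062 and −0.067 under TGFβ1 and 0.029, 0.13, 0.053 and −0.075 under vehicle. These groups overlapped fully, with a log2 change of −0.067 (95% interval −0.24 to 0.11). Of the NM_201282 probes, probe 1 changed by −0.043 (95% interval −0.21 to 0.12) and probe 3 by 0.18 (95% interval 0.019 to 0.33). On probe 3 the TGFβ1 wells read −0.040, 0.12, 0.13 and 0.14 and the vehicle wells −0.038, −0.13, −0.12 and −0.070. TGFβ1 replicate 1 sat just below the highest vehicle well, and the other TGFβ1 wells lay above all vehicle wells. Taken as the mean of its probes, EGFR changed by 0.034 (95% interval −0.090 to 0.16).

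ERBB2, the partner receptor, changed by 0.0025 and 0.0058 on probes 1 and 2 and by 0.20 on probe 3 (95% interval 0.011 to 0.39). Probe 3 read 0.22, −0.043, −0.099 and 0.33 under TGFβ1 and −0.14, −0.11, −0.079 and −0.071 under vehicle. Its higher mean came from TGFβ1 replicates 1 and 4, while replicate 3 lay within the vehicle range. Without replicate 4 the log2 change of probe 3 was 0.13. Probes 2 and 3 are annotated to the same transcript, NM_004448. Their 95% intervals overlapped (−0.14 to 0.15 on probe 2), and the difference between them was not tested. Probe 2 varied least of the family, with a within-group SD of 0.028, and 0.089% of all probes had a lower one. Its signal over background cannot be seen in centred values.

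ERBB3, the neuregulin receptor, changed by −0.026, −0.043 and −0.028 on its 3 probes, and by −0.033 as their mean (95% interval −0.16 to 0.092). Its probe to the main transcript NM_001982 read −0.091, −0.069, −0.20 and 0.28 under TGFβ1 and 0.11, 0.043, 0.028 and −0.094 under vehicle. TGFβ1 replicate 4 gave the highest value and the other TGFβ1 wells lay below most vehicle wells, and without replicate 4 the log2 change of this probe was −0.14. ERBB4, which binds neuregulins, BTC and HBEGF, changed by −0.028 (95% interval −0.19 to 0.13). Its wells lay between −0.054 and 0.032 under TGFβ1 and between −0.10 and 0.11 under vehicle.

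The remaining genes of the pathway were counted from lists written with earlier results of these data known. Their counts stand beside the 3.03% of all genes called higher and the 2.67% called lower, and the median log2 change of all genes was −0.0013. Of the other ERBB ligands, the 4 neuregulin genes NRG1 to NRG4 were measured and 0 passed in limma in either direction, also 0 at an unadjusted p under 0.05. Their log2 changes ran from −0.039 to 0.11.

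Among 16 genes of ligand export and shedding 3 were higher and 2 were lower, at a median log2 change of −0.031. The metalloproteinase inhibitor TIMP1 rose by 1.03 (SE 0.08, adjusted p = 3.2e-06 in limma), and TIMP3, the inhibitor of ADAM17, fell by 0.49 (SE 0.09, adjusted p = 0.0043). ADAM19, a protease that can cleave neuregulin, rose by 0.56 (SE 0.06, adjusted p = 3.5e-05) as the mean of probes at 1.16 and −0.038. FRMD8, which stabilises the iRhom and ADAM17 complex, was higher by 0.32 (adjusted p = 0.036 in limma), also on 1 of its 2 probes (0.66 against −0.017). The call of FRMD8 was lost when TGFβ1 replicate 2, 3 or 4 or vehicle replicate 1, 2 or 3 was left out. SDCBP (syntenin), which binds the precursor of TGFα, fell by 0.43 (SE 0.09, adjusted p = 0.013), with 1 of its 2 probes passing alone (−0.55 against −0.31). ADAM17 itself changed by −0.051 (adjusted p = 0.79) and ADAM10, the other main sheddase, by 0.047 (adjusted p = 0.89), neither past the threshold.

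Receptor inhibitors and turnover genes, 18 of them measured, held 3 that were higher and 1 that was lower, at a median of −0.0031. LRIG3, a membrane protein of the family of the ERBB inhibitor LRIG1, had the largest change. It read 0.63, 0.68, 0.59 and 0.81 under TGFβ1 and −0.97, −0.56, −0.57 and −0.62 under vehicle, with no overlap, and rose by 1.36 (SE 0.09, adjusted p = 6.4e-07 in limma). LRIG1 changed by −0.054 and LRIG2 by −0.088, and neither passed. The ubiquitin ligases that mark EGFR for breakdown moved apart, CBL higher by 0.35 (SE 0.07, adjusted p = 0.012), where 1 of its 2 probes passed alone (0.45 against 0.26), and CBLB lower by 0.30 (log2 change −0.30, SE 0.06, adjusted p = 0.0083). SH3KBP1, an adaptor that binds CBL, rose by 0.27 (SE 0.06, adjusted p = 0.014), at 0.37 and 0.38 on the 2 probes that passed alone and 0.062 on the other. ERRFI1, an inhibitor of the EGFR kinase that EGFR signalling induces, changed by 0.021 (SE 0.08, adjusted p = 0.96).

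Of 15 measured adaptors and kinases below the receptors 1 was higher and 2 were lower, at a median of −0.0062. MAP2K1, a kinase that activates ERK, rose by 0.36 (SE 0.07, adjusted p = 0.0072 in limma). The related MAP2K2 changed by −0.093 (adjusted p = 0.79) and did not pass. EPS8, a substrate of the EGFR kinase, fell by 0.66 (SE 0.10, adjusted p = 0.00068). ARAF, a RAF kinase, was lower at −0.29 (adjusted p = 0.040), and leaving out TGFβ1 replicate 1, 2 or 3 or vehicle replicate 1, 2 or 4 lost that call.

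Genes that respond to ERK signalling went both ways, with 5 of 23 measured genes higher and 4 lower and a median of 0.11. FOSB, a subunit of the AP-1 factor, rose by 1.34 (SE 0.07), IER3, an early response gene, by 0.85 (SE 0.10), and CCND1, the G1 cyclin, by 0.64 (SE 0.07). MYC fell by 0.87 (SE 0.07), and the ETS factors ETV4 and ETV5 fell by 0.44 (SE 0.09) and 0.43 (SE 0.07). Their adjusted p values in limma were 8.4e-08, 0.00011 and 0.00010 for the genes that rose and 3.6e-06, 0.012 and 0.0018 for those that fell. Of the 2 ETV4 probes 1 passed alone, at −0.53 against −0.35. The remaining calls were DUSP1 and ETV1, higher, and DUSP4, lower. The call of ETV1 was lost in 5 of the 8 fits that left out 1 array, and that of DUSP4 in 7 of the 8. Neither of the 2 DUSP4 probes passed alone. Several of these genes also answer to SMAD and other factors, and the part of EGFR signalling in their changes was not tested.

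**Figure D3:**
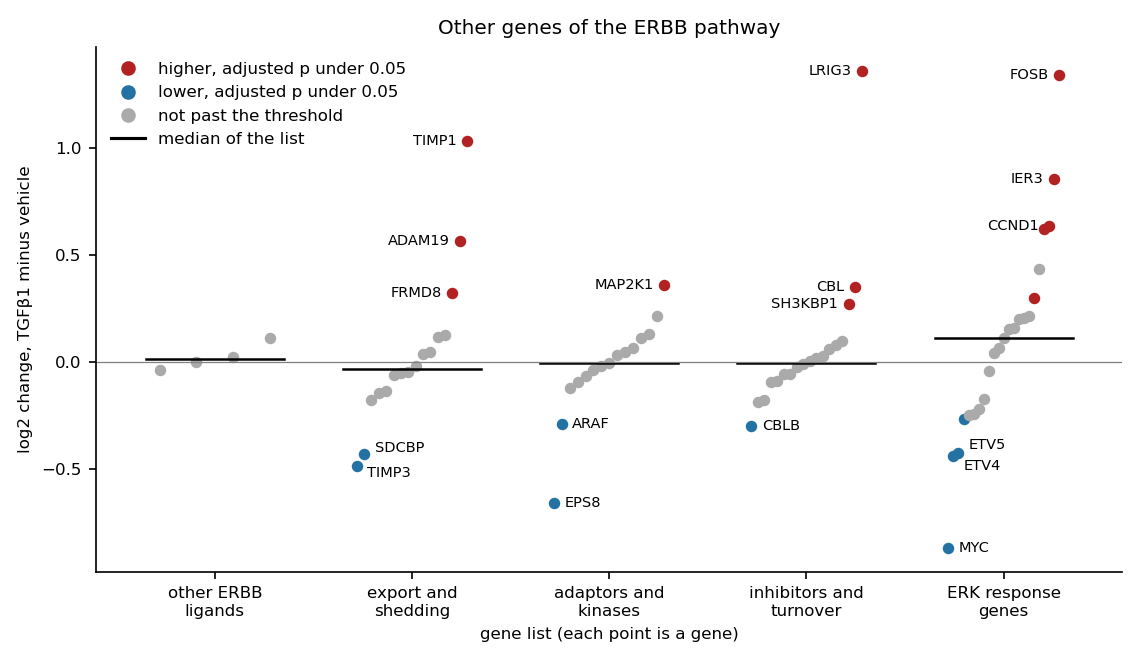
Log2 change of each gene, TGFβ1 minus vehicle (vertical axis), in 5 lists of other ERBB pathway genes, coloured by the limma call over all 20045 genes, with the list median as a bar. LRIG3 at 1.36, FOSB at 1.34 and TIMP1 at 1.03 are the highest points, MYC at −0.87 the lowest, and all 5 medians lie between −0.031 and 0.11.

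TGFA was then set beside every other gene by Pearson's r over the 8 arrays, as a description. The genes most like it were IL11 (r = 0.997), a cytokine of the IL-6 family, CASC15 (0.996), a long non-coding RNA, SERPINA3 (0.996), a protease inhibitor, FNDC3B (0.996), a membrane protein, and IGFBP5 (0.995), which binds insulin-like growth factors. The most opposite were TGFBR3 (r = −0.997), a co-receptor of TGFβ, the GTPase RHOJ (−0.995) and NIPAL3 (−0.995), a gene of the NIPA family of membrane transporters. With 4 wells against 4, such an r reports mainly that a gene separates the same groups with little spread. The sizes differed, with a log2 change of 3.50 for IL11 and 1.12 for FNDC3B, against 2.01 for TGFA. Within the family BTC came closest to TGFA (r = 0.955), ahead of HBEGF (0.704), and EREG was the most opposite (−0.495).

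**Figure D4:**
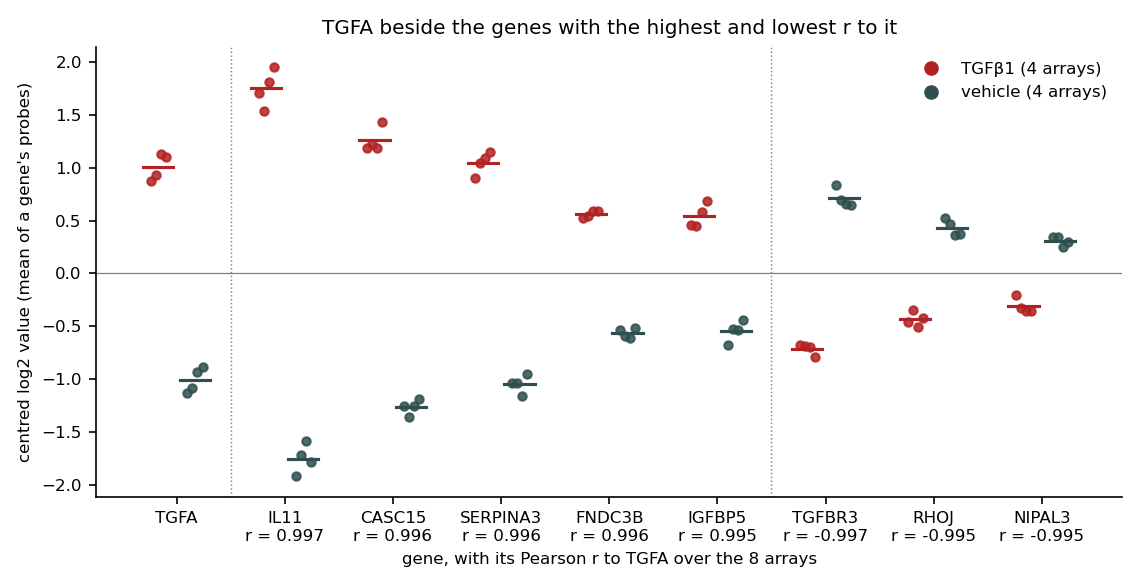
Centred log2 values (vertical axis) of TGFA, the 5 genes with the highest and the 3 with the lowest Pearson r to it, with 4 TGFβ1 arrays left and 4 vehicle arrays right for each gene and bars at the group means. The groups are apart for all 9 genes, widest for IL11 and narrowest for NIPAL3.

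The upstream sequence of TGFA and BTC, the genes of the 3 probes called, is given from RefSeq on GRCh38.p14, as the 250 bases before the first annotated start of each gene. Capitals mark matches on either strand to the SMAD motif CAGAC, the AP-1 motif TGANTCA, the TATA motif TATAA and the GC box GGGCGG, with no overlap between motifs.
TGFA, chr2:70553827-70554076, minus strand: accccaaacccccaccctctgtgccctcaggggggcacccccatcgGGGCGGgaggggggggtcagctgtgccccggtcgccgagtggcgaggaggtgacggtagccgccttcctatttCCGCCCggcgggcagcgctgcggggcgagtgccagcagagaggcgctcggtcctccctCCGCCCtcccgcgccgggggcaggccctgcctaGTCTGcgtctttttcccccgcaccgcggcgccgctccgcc
BTC, chr4:74794524-74794773, minus strand: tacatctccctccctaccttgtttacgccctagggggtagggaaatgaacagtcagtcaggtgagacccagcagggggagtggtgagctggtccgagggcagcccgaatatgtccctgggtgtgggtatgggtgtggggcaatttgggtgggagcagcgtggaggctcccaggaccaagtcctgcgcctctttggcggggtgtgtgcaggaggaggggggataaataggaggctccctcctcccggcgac
The TGFA window is 75.6% G and C and holds 3 GC boxes and 1 SMAD motif, while the BTC window, at 62% G and C, holds no match to any of the 4. A window at a second annotated TGFA start, at 64% G and C, holds none either. The background was 35116 windows of 250 bases before annotated starts, alternative starts of a gene included. Of these 42.6% hold a GC box, 38% the SMAD motif, 18.9% the TATA motif and 6.57% the AP-1 motif. Their median was 58% G and C. A match is a run of letters and not a shown binding site.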

How the data were processed

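A2058 cells in 8 wells were measured on 1 Illumina HT-12 array each. By the sample titles 4 were treated with TGFβ1 and 4, called vehicle here, were untreated. For the deposited log2 values, the authors removed control probes and quantile normalised in BASE, then took logs and centred genes and samples in MeV. On the values, probe means were 0 within 1.6e-07 and array means within 1.8e-05. The log base comes from the methods, and no detection value or level is kept, so no filter on dim probes was made. The number of arrays limits the precision.

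Without covariates, groups were compared in limma 3.58.1 (lmFit, eBayes; R 4.3.3), and p-values were adjusted by Benjamini-Hochberg over 47315 probes, or over 20045 genes taken as the mean of their probes. Of the probes, 30105 had 1 gene symbol, 8 had several and 17202 had none. A call is an adjusted p under 0.05. The fit was tested on simulated data. SAM, the test of the methods, was coded anew over 70 labellings at a median of at most 10 false positives. Members and lists were chosen with earlier results of these data known. Named genes are all members, up to 3 called genes per direction and list with the largest change, and the 5 genes most and 3 least correlated with TGFA. KRT10, ADAM17, ADAM10, LRIG1, LRIG2, ERRFI1, MAP2K2, DUSP1, DUSP4, ETV1 and the neuregulins were named after their values were seen. Probe sequences came from the study's supplementary list of probes altered by TGFβ1, which held 3 of the 17, and promoters from RefSeq. Figures used Python 3.11.15 and matplotlib 3.10.9. The alternatives were another quantile normalisation, a common median, array weights, a robust variance fit, a block on the replicate number, a stricter adjusted p of 0.01, leaving out each array, 1 probe per gene, that of largest SD, and SAM.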

Additional observations from a re-analysis of the deposited data

Results flagged for a closer look

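EGFR probe 3 had 1 well far from the others of its group. TGFβ1 replicate 1 read −0.040, while the other TGFβ1 wells read 0.12 to 0.14, a gap of 0.893 of the group's range. This was 1 of 34 sets of 4 wells examined in the family, and about 1 in 20 would stand out by chance.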

How the results depend on the processing

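Over the 15 alternatives run for each, the log2 changes of the TGFA probes lay between 1.75 and 2.08. That of BTC lay between 0.43 and 0.55. These ranges are a description, since the family was selected on these values. Not all alternatives could move them. The robust variance fit, the stricter adjusted p and the replicate block cannot alter a log2 change here, and they returned the main values. At an adjusted p under 0.01, 567 probes were higher and 392 lower, and 360 genes were higher and 257 lower. In the pathway lists that threshold left 2 genes higher and 1 lower in export and shedding. It left 1 higher and 1 lower among receptor inhibitors and turnover, and 1 higher and 1 lower among adaptors and kinases. Among ERK response genes 4 stayed higher and 2 lower. SAM called 609 probes higher and 370 lower, against 852 and 724 in limma. With the replicate number as a block (replicate block), and with the probe of largest SD per gene, 1 adaptor or kinase was lower, the call of ARAF being lost. Leaving out each array in turn, 1 to 2 adaptors and kinases were lower and 1 to 2 receptor inhibitors. DUSP4 and ETV1, called at log2 changes of −0.27 and 0.30, lost their calls under the block, and in 7 and 5 of the 8 fits that left out 1 array (for DUSP4, each array except vehicle replicate 1; for ETV1, TGFβ1 replicates 1 and 3 and vehicle replicates 1, 2 and 3). No pairing by replicate number was seen, as deviations of same-numbered wells correlated between −0.016 and 0.026 over all probes. With dim probes included, this cannot show that the wells were unpaired. Under the block 817 probes were higher and 688 lower. The cause of these differences was not tested. Array values without signal levels limit what can be said of probes near 0.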
